A study of Caenorhabditis elegans with 2 samples.

Results

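AT-richer promoter summits are the sites of EGRH-3 enrichment in worm gene promoters whose surrounding DNA is not GC-rich. They were chosen by position and base composition alone. A summit is the base of highest enrichment in a peak. Members lay at most 1000 bp before, or 200 bp after, the 5' end of some protein-coding transcript, outside coding exons, and over 200 bp from any tRNA, snRNA or snoRNA gene. GC content over the summit base and 50 bp to each side had to be under 55%. Of 2218 peaks in the conservative list of both replicates, 2194 were nuclear and 845 of these had a promoter summit. Coding exons held 156 of them and another 68 lay near a small RNA gene, which left 621. Of those, 343 were AT-richer and are the members (55.2%, 95% interval 51.2 to 59.2), and 278 were GC-rich promoter summits. A further 2 summits on mitochondrial DNA met the same limits, at GC contents of 14.9% and 30.7%, and were not counted.

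The peaks came from chromatin immunoprecipitation followed by sequencing (ChIP-seq) of whole young adult Caenorhabditis elegans at 65 h, grown from larvae synchronised by starvation. All worms were of strain RW12196, in which CRISPR had added TY1, EGFP and 3xFLAG to the egrh-3 gene on chromosome IV, and an anti-GFP antibody recovered the fusion protein. The samples formed 1 group of 2 biological replicates, so no conditions were compared, and values from whole worms do not tell tissues apart. The lists give no read counts, so depth is unknown, and worms without the tag were not analysed here.

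EGRH-3 belongs to the early growth response (EGR) transcription factors, zinc finger proteins whose mammalian members bind a short GC-rich site. Many worm promoters are short and AT-rich, with genes packed closely and often arranged head to head, so that one stretch of DNA serves a pair of genes. Transcript 5' ends in worms often mark the point where a spliced leader is joined rather than the start of transcription.

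The windows below are examples of the DNA under the summits, and the members as a whole were not sorted into kinds. The first 7 windows below show members that are strong or belong to protein synthesis, respiration, protein folding and splicing. They are written from the plus strand of WBcel235 (RefSeq sequence), and capitals mark the 5 6-base words with the smallest p-values for over-representation at summits, on either strand. These were AGAGAG with GAGAGA and AGAGAC, which are GA-rich, and GAGCGC with CGCTCC, which are not. mog-4 held none of them.
epc-1 (chrIII:12608695-12608795): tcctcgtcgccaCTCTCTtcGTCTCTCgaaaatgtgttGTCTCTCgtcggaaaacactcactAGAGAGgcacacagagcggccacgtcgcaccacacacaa
C17H11.4 (chrX:8182048-8182148): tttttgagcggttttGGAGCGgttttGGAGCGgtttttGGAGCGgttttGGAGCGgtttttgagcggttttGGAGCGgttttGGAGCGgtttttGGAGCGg
nhr-114 (chrV:4186515-4186615): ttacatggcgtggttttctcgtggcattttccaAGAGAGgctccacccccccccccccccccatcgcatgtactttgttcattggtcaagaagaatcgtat
rpl-15 (chrIV:654868-654968): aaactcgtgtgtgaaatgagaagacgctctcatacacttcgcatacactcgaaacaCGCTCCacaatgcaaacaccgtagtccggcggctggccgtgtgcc
cox-5A (chrIII:12905158-12905258): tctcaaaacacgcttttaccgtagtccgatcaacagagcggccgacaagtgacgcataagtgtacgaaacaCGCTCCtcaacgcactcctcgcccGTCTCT
hsp-1 (chrIV:17278528-17278628): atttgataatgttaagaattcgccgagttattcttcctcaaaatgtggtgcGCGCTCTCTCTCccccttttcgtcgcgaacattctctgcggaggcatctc
mog-4 (chrII:14561803-14561903): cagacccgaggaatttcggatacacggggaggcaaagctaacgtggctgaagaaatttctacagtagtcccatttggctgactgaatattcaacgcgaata

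The next windows show units of the heat shock element, GAA and TTC in alternation with 2 bases between them, in capitals where at least 3 units stood in a row. This is the site that heat shock factor is known to bind.
F44E5.4 (chrII:11759422-11759522): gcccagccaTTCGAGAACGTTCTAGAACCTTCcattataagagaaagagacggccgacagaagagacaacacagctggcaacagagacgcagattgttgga
ZC262.7 (chrIII:8344451-8344551): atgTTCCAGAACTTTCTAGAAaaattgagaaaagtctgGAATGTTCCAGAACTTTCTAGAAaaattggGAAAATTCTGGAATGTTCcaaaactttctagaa
eri-12 (chrIV:12156004-12156104): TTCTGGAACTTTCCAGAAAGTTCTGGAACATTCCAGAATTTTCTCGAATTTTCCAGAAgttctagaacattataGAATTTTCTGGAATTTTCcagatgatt

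Another pair of windows, from different chromosomes, shared an unbroken run of 63 bases, in capitals.
rps-24 (chrIV:385469-385569): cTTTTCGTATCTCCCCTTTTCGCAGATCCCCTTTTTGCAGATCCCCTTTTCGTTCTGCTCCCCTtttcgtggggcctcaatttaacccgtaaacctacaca
Y62F5A.12 (chrII:11534932-11535032): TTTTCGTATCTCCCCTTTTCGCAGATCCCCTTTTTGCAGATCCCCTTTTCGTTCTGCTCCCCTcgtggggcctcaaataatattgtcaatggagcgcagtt

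The last window shows a member of very low GC content, with nothing marked.
C36E8.6 (chrIII:3987426-3987526): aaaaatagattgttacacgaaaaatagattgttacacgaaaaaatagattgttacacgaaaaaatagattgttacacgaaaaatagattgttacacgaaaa

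The label held only relative to the other promoter summits. Members had a GC content of 21.8% to 54.5% with a median of 49.5%, and GC-rich promoter summits had 55.4% to 76.2% with a median of 60.4%. At 259 of the 343 members GC content was 45% or more. Among the 20395993 promoter positions that met the limits on exons and small RNA genes, 98.8% had a GC content under 55%, and 60.5% had one under 35%. Members were therefore GC-richer than most promoter DNA. The density of summits was 1.38 per Mb of promoter positions below 35% GC, 6.45 from 35% to 40%, 18.1 from 40% to 45%, 89.6 from 45% to 50% and 328 from 50% to 55%. It was 758 per Mb from 55% to 60% and 4323 per Mb at 65% and above. The threshold did not separate distinct classes. The 3 strongest of the 37 members at the highest GC content, 54.5%, belonged to K11D2.4, epc-1 and Y37D8A.4, with signals of 671, 498 and 431. The 3 strongest of the 39 summits at 55.4%, just over it, belonged to spat-3, hlh-11 and T28D9.11, with signals of 868, 336 and 315.

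**Figure D1:**
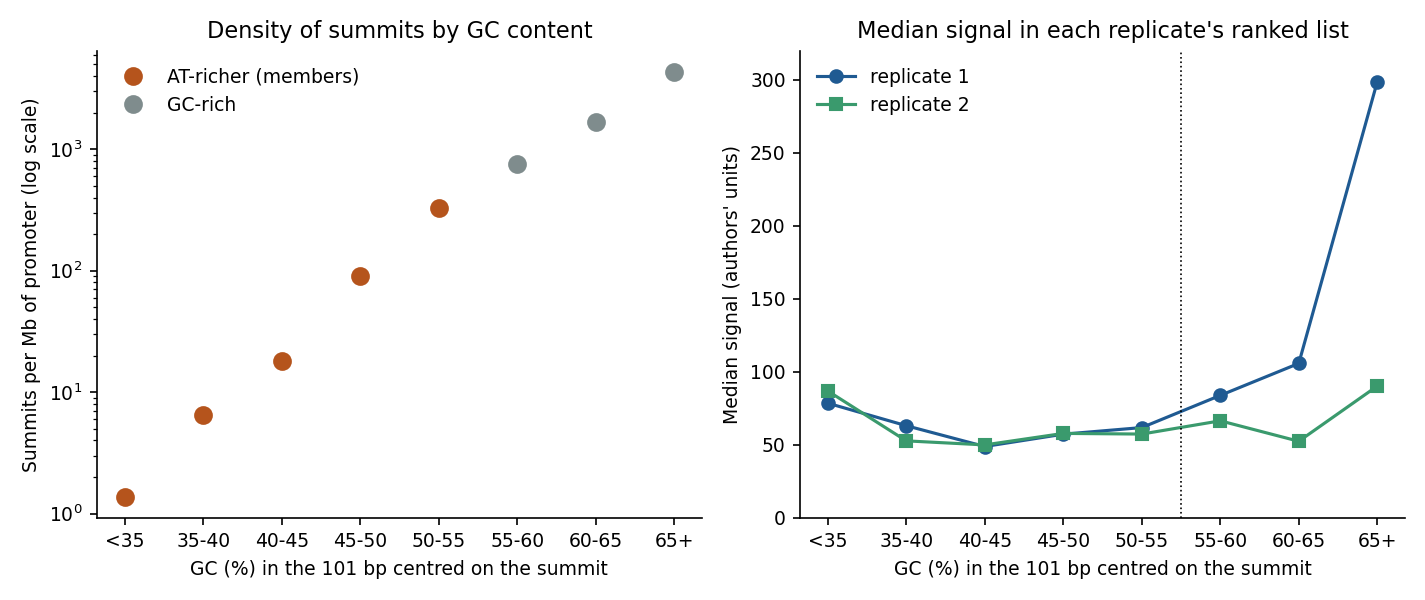
The left panel plots promoter summits per Mb of promoter positions (log axis) against GC content in the window, with AT-richer members in brown and GC-rich summits in grey; density is 1.38 per Mb below 35% GC and 4323 per Mb at 65% and above. The right panel plots the median signal in each replicate's ranked list for the same bins, with the 55% threshold dotted; replicate 1 reaches 299 in the GC-richest bin and replicate 2 reaches 90.3.

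Members were weaker than GC-rich summits. The signal is the authors' measure of peak strength and has no stated scaling. Its median was 109 at members (lowest 11.4, highest 671) and 169 at GC-rich summits (lowest 18.8, highest 2069). Of the members, 122 of 343 lay above the median of both kinds together (35.6%, 95% interval 30.5 to 40.9), against 188 of 278 GC-rich summits (67.6%, 61.8 to 73.1; odds ratio 0.264, Fisher's exact adjusted p = 7.06e-15). All tests of members against GC-rich summits are two-sided Fisher's exact tests, with p-values adjusted over 9 such comparisons, of which 7 passed 0.05. Intervals are exact (Clopper-Pearson), and they and the tests cover counting error over summits, which are not replicates. The strongest member ranked 99 among nuclear peaks, since 98 were stronger.

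The replicates differed in which kind of promoter summit they held. Replicate 1's own list covered 217 of 343 members (63.3%) and 245 of 278 GC-rich summits (88.1%; odds ratio 0.232, Fisher's exact adjusted p = 1.55e-12). Among the most reproducible summits, at an IDR (irreproducible discovery rate) under 0.001, the odds ratio was 0.202 and did not pass (Fisher's exact adjusted p = 0.0800). Replicate 2's own list covered 213 of 343 members (62.1%, 95% interval 56.7 to 67.3) and 173 of 278 GC-rich summits (62.2%, 56.3 to 67.95), an odds ratio of 0.994 that did not pass (Fisher's exact adjusted p = 1). Among summits with a signal in both replicates, 222 of 323 members ranked higher in replicate 2 than in replicate 1 (68.7%), against 95 of 274 GC-rich summits (34.7%; odds ratio 4.14, Fisher's exact adjusted p = 8.46e-16). Ranks were taken over both kinds together, so a rise of members entails a fall of GC-rich summits. The median signal of members was 58.9 in replicate 1 and 56.7 in replicate 2. At GC-rich summits it was 106 in replicate 1 and 62.6 in replicate 2, and the gap between the kinds was wider in replicate 1. When the same rule was applied to each replicate's own list, 279 of 637 promoter summits of replicate 1 were AT-richer (43.8%, 95% interval 39.9 to 47.8), and 295 of 462 of replicate 2 (63.9%, 59.3 to 68.2). Both lists held 149 of the members, replicate 1's alone 68, replicate 2's alone 64, and neither held 62. The median signal was 159 for members in both lists and 87.05 for members in neither. The part of depth or library composition in the difference between replicates was not tested.

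**Figure D2:**
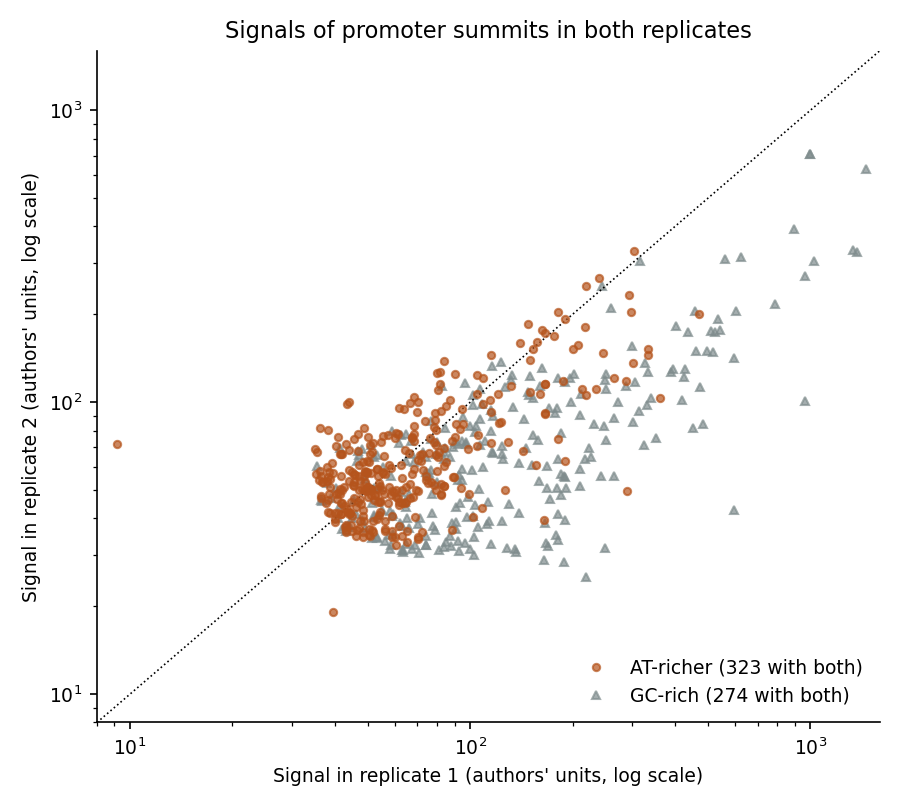
Each point is a promoter summit with its signal in replicate 1 (horizontal, log axis) and replicate 2 (vertical, log axis); brown circles are the 323 members with both values and grey triangles the 274 GC-rich summits, and the dotted line marks equal signals. Members lie around the line (median ratio of replicate 1 to replicate 2 of 1.05) and GC-rich summits mostly to its right (1.85). The signal has no stated scaling, so only the difference between the kinds can be read, not equal enrichment in both replicates.

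The members that differed most between the replicates included genes of respiration, protein turnover and muscle. Those ranked highest in replicate 2 relative to replicate 1 were nasp-2, C34B4.2, cox-5A, cdc-48.1 and drap-1. At cox-5A, a subunit of respiratory complex IV, replicate 1 gave 43.4 and replicate 2 gave 98.4. At cdc-48.1, an AAA ATPase that extracts ubiquitinated proteins, replicate 1 gave 44.2 and replicate 2 gave 100, and at nasp-2 replicate 1 gave 36.1 and replicate 2 gave 81.9. As the choice by rank made likely, none of these 5 summits was in replicate 1's own list. drap-1 and C34B4.2 each had another member that was, and the drap-1 summit meant here is at 9731399 on chromosome V. Those ranked lowest in replicate 2 were unc-62, K12C11.1, frg-1 with ubq-2, unc-96 and unc-22. unc-62, a homeobox cofactor of the Meis type, reached 165 in replicate 1 but 39.4 in replicate 2. unc-96 and unc-22, which encodes twitchin, are genes of muscle structure. For unc-96 the signals were 102 in replicate 1 and 40.5 in replicate 2. For unc-22 they were 108 in replicate 1 and 43.5 in replicate 2, but 14.01 in the conservative list. Replicate values are those of the strongest region over the summit, so those of unc-22 may belong to another summit. As the choice by rank made likely here too, none of these 5 summits was in replicate 2's own list.

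Members clustered just upstream of genes. The middle 50% of members lay from 129.5 to 514 bp upstream of the nearest 5' end, 326 were upstream and 17 downstream. The bin from 100 to 200 bp upstream held 78 members, that from 200 to 300 bp 59 and that from 0 to 100 bp 51, after which counts dropped to 25 or fewer per 100 bp. Within 300 bp of a 5' end lay 205 of 343 members (59.8%, 95% interval 54.4 to 65.0) and 136 of 278 GC-rich summits (48.9%, 42.9 to 54.96; odds ratio 1.55, Fisher's exact adjusted p = 0.0112). Of AT-richer promoter positions 43.3% were that close, and of GC-rich positions 44.7%. In replicate 2's own list alone the odds ratio was 1.08 and did not pass (Fisher's exact adjusted p = 0.699). At an IDR under 0.001 it was 1.18 and did not pass (Fisher's exact adjusted p = 0.608). With GC content taken over 100 bp to each side of the summit it was 2.335. Intergenic DNA held 242 members, introns 65, 5' UTRs 16, exons of noncoding genes 19 and a 3' UTR 1. In all, 82 lay inside a protein-coding gene, 66 of them in a gene whose own promoter window held the summit.

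**Figure D3:**
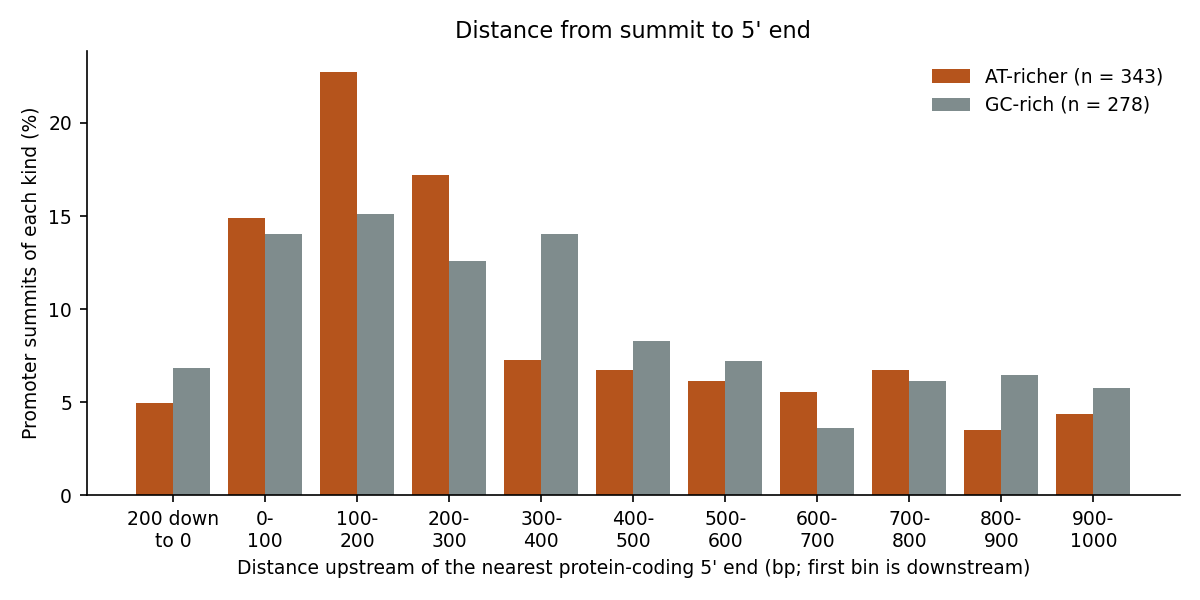
Bars give the percent of AT-richer members (brown, n = 343) and of GC-rich promoter summits (grey, n = 278) in 100 bp bins of distance upstream of the nearest protein-coding 5' end, with summits up to 200 bp downstream in the first bin. Members peak from 100 to 200 bp, with 22.7%, where GC-rich summits have 15.1%.

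Summits between head-to-head genes were common among members. A divergent pair is a minus-strand 5' end and, to its right, a plus-strand 5' end whose promoter windows both hold the summit. Members lay between such genes in 29.4% of 343 cases (95% interval 24.7 to 34.6), and GC-rich summits in 50 of 278 (17.99%, 13.65 to 23.01; odds ratio 1.90, Fisher's exact adjusted p = 0.00220). Of AT-richer promoter positions 8.81% were so placed, and of GC-rich positions 8.39%. Within 300 bp of a 5' end, 86 of 205 members were divergent (41.9%), against 14.1% of AT-richer positions that close. In replicate 2's own list the odds ratio was 1.53 and did not pass (Fisher's exact adjusted p = 0.0963), while in replicate 1's it was 2.54 (Fisher's exact adjusted p = 1.11e-05). At an IDR under 0.001 it was 1.54 and did not pass (Fisher's exact adjusted p = 0.222), and with GC content over 100 bp to each side it was 5.545. These members fell on 99 pairs whose 5' ends lay a median of 541 bp apart. Upstream of both genes lay 96, in the middle 50% of the gap 68, and within 300 bp of both 5' ends 44.

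The strongest stood between supr-1 and dnj-28, which encodes a DnaJ cochaperone, and reached 507 (240 in replicate 1 and 267 in replicate 2), 153 bp from dnj-28 and 421 bp from supr-1. Between epc-1, an Enhancer of Polycomb homologue, and Y111B2A.12 it reached 498 (297 in replicate 1 and 204 in replicate 2), with the 5' ends 703 bp apart. Both replicates were high at these pairs, and both lists held them. F44E5.4 and F44E5.5, heat-inducible Hsp70-type genes, shared a summit on chromosome II at 11759472, 161 bp and 190 bp from their 5' ends. It reached 434 (219 in replicate 1 and 250 in replicate 2). rpl-15, a protein of the large ribosomal subunit, shared a summit with K11H12.8 (chromosome IV, 654918, signal 389). prp-19, a splicing factor and ubiquitin ligase, shared one with K10D2.5, also in the window of emb-1, a subunit of the anaphase-promoting complex (chromosome III, 5172665, signal 368). Further pairs were Y1A5A.1 and C36E8.6, with 2 summits in 1 interval (signals 472 and 470), and K09H11.11 and C53A3.3 (signal 400).

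The other strong members had a single gene's promoter. The strongest was in an intron of K11D2.4 on chromosome I, 933 bp upstream of an internal 5' end, and reached 671 (471 in replicate 1 and 200.9 in replicate 2). pck-2, a phosphoenolpyruvate carboxykinase of gluconeogenesis, followed at 636 (304 in replicate 1 and 329 in replicate 2), 192 bp downstream of a 5' end and in a 5' UTR, at 32.7% GC. rps-24, a protein of the small ribosomal subunit, had a summit 368 bp upstream on chromosome IV at 385519, and reached 538 (294 in replicate 1 and 232 in replicate 2). nhr-114, a nuclear hormone receptor, had 402 at 638 bp upstream. C17H11.4 had 454, srh-246, a chemoreceptor gene, 387, irld-1 387, Y62F5A.12 386 and mtcu-2 357, the last in an intron of the neighbouring let-268. mog-4, an RNA helicase of splicing that also acts in germline sex determination, had 343 and rpa-2, a subunit of the single-stranded DNA binding protein RPA, 340. These were in both replicates' own lists. Among the lowest GC contents were 24.8% at C36E8.6 and rgs-8.1 (signal 198 at rgs-8.1), 25.7% at Y1A5A.1 and 30.7% at F55H12.7 and srh-246 (signal 83.2 at F55H12.7).

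Repeated sequence lay under many of the members. In 79 of 343 the window was soft-masked by 50% or more in RefSeq, which marks repeats and low-complexity DNA, against 16 of 278 GC-rich summits, and 9 of the 20 strongest members were among the 79. The soft-masked share of all AT-richer promoter positions was not computed, so the 79 cannot be set against promoter DNA as a whole. The median signal of the 79 was 111.6, and that of the other 264 members 109. Of the 79, 72.2% were in replicate 1's own list and 58.2% in replicate 2's, and of the other 264, 60.6% and 63.3%. Runs of 25 or more bases in common linked 60 members into 12 groups. Reads from repeats can be placed in several ways, and how the authors' aligner placed them is not stated in these sources. Their part in these signals was not tested. Without summits in such windows, among 264 members and 262 GC-rich summits, 6 of the 7 comparisons still passed. The exception was membership of the larger list.

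The largest group held 22 members, the pair with the 63-base run among them. Their signals ran from 80.7 to 538 with a median of 150. They included rps-24, dnj-28 with supr-1, Y62F5A.12, atad-3, npp-6 with spd-5, eel-1 and cpt-2, on 5 autosomes. A 20-base run found in 16 of them had 74 copies at 42 places in the nuclear genome, counting copies within 500 bp as 1 place. A conservative summit lay within 100 bp of 17 of the 42 places, a summit of replicate 1's own list near 16 and one of replicate 2's near 14. The run was chosen because members carry it, so the places of those members are among the 17 by construction. Places away from members were not counted separately, so these counts do not give how often other copies were enriched.

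A group of 7 members carried heat shock elements in tandem. These were pck-2, col-52, ZC262.7, eri-12, vamp-8 and 2 summits of ZK1053.2, with signals from 42.7 to 636. A 20-base run in all 7 occurred at 127 places in the nuclear genome, of which 29 had a conservative summit within 100 bp, 22 one of replicate 1 and 28 one of replicate 2. Here too the places of the members are among the 29 by construction. At least 3 heat shock units in a row stood at 11 members (3.21%, 95% interval 1.61 to 5.67), against 0 of 278 GC-rich summits and 0.728% of all AT-richer promoter windows. Flanks 300 bp away held them in 1.46% on the side away from the gene and 2.33% on the side of the gene. Among members under 40% GC it was 8 of 42, against 0.812% of promoter windows of that GC content. These 8 were the 7 members of the group, which share sequence and are not separate cases, and lbp-9. The members outside the group were F44E5.4 with F44E5.5, C01G10.7 with ahsa-1, which encodes an HSP90 cochaperone, R107.5 with cls-2, and lbp-9. C01G10.7 and ahsa-1 had 121 (45.6 in replicate 1 and 74.7 in replicate 2), and lbp-9 had 11.4, the lowest of all members. The word of 3 or more units was chosen after the windows had been read and was counted in those same windows. A more common heat shock element word stood at 26 members (7.58%), in 7.58% of each flank and in 7.17% of all AT-richer promoter windows. Under 40% GC it was in 9 of 42 members (21.4%), against 7.70% of windows, and from 50% to 55% in 5 of 156, against 2.87%.

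**Figure D4:**
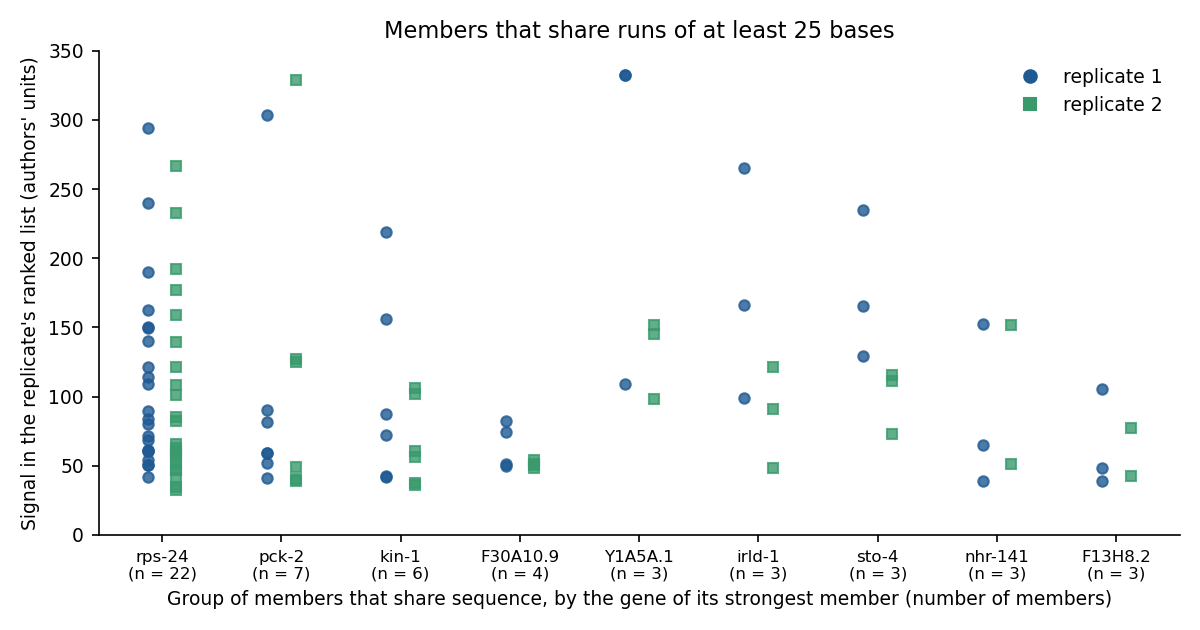
Each column is a group of members that share runs of at least 25 bases, named by the gene of its strongest member, for the 9 groups of 3 or more; blue circles give the signal in replicate 1 and green squares that in replicate 2 (linear axis, authors' units). The group of rps-24 has 22 members, and signals within groups spread widely in both replicates.

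GA-rich and GC-rich words were over-represented at the summits. Each 6-base word, counted with its reverse complement, was compared between the summit window and a window of the same length centred 300 bp away on the side away from the gene. By exact McNemar tests 161 words (7.74% of those tested) were more frequent at summits and 157 in the flank. AGAGAG stood at 83 members (24.2%) and in 16 flanks (4.66%; exact McNemar adjusted p = 1.23e-10), GAGAGA at 94 members (27.4%) and in 23 flanks (6.71%; exact McNemar adjusted p = 1.65e-10). These words overlap each other and had the smallest p-values. By ratio, GC-rich words stood further apart. GAGCGC stood at 51 members and 2 flanks, and CGCTCC at 40 and 3. AGAGAC stood at 63 and 14. At least 1 of these 5 words was found in 175 members (51.02%), 43 flanks away from the gene (12.5%) and 60 flanks on the side of the gene (17.5%). The 5 words were chosen by their p-values in these same windows, so this gap is in part fixed by the choice. All promoter windows under 55% GC held AGAGAG in 4.99% and GAGCGC in 1.49%. Composition differed too, with a mean GC content of 47.9% at summits, 36.2% in the flank away from the gene and 37.2% in the flank on its side. Of the 161 words, 157 had 3 or more G or C bases.

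GAGAGA was also frequent at matched GC content. From 40% to 45% GC, 14 of 42 members held it (33.3%), against 10.3% of promoter windows. From 45% to 50% it was 24 of 103 (23.3%) against 13.6%, and from 50% to 55%, 55 of 156 (35.3%) against 16.9%. Under 40% it was 1 of 42 (2.38%), against 4.62%. GC-rich summits held it in 84 of 278 cases (30.2%). In windows soft-masked by 50% or more, 11.4% of members had it, and in the others 32.2%.

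The EGR-type word was rare at these summits. GTGGGCG or GTGGGTG, the core of the mammalian EGR site, was found on either strand in 5 members (1.46%, 95% interval 0.475 to 3.37), in 12 GC-rich summits (4.32%) and in 1.20% of all AT-richer promoter windows. The flanks held it in 2.04% and 2.33%. At 45% to 50% GC it was in 2 of 103 members, against 3.94% of windows, and at 50% to 55% in 3 of 156, against 5.54%. CCGCCC, a GC box, was in 6.41% of members, 19.1% of GC-rich summits and 1.83% of all windows, and at 50% to 55% GC in 10.3% of members and 11.3% of windows. Words common in promoter DNA were less frequent than in the windows as a whole. TTTTTT stood at 20.1% of members, against 48.3% of windows. TATAAA, the TATA box, stood at 2.33%, against 13.9%. TGATAA, which endodermal zinc finger factors are known to bind, stood at 3.499%, against 10.6%. These are lower-GC words and the members had a higher GC content than the windows. Under 40% GC, TTTTTT was in 38.1% of members and 54.2% of windows, and from 45% to 50% in 22.3% of members and 19.99% of windows. TATAAA was less frequent in members in each of 4 GC bins, with 9.52% against 15.99% of windows under 40% GC and 0.641% against 2.51% from 50% to 55%, though on 4 members and 1 member.

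In all, 433 of 19973 nuclear protein-coding genes had a member in their promoter window (2.17%), and 321 were the nearest gene of one. GC-rich promoter summits met 332 of the 19973 genes (1.66%). No test was made on the lists, which were chosen with results of these data known. Among cytosolic ribosomal protein genes 15 of 82 had a member (18.3%), through 14 summits. rps-24 and rpl-15 were followed by rpl-35, at 258 (115 in replicate 1 and 145 in replicate 2), rpl-43 at 226 and rpl-20 at 222. GC-rich summits met 6 genes of this list. The count was 13 in replicate 1's own list and 18 in replicate 2's, and it dropped to 9 when each summit was given to its nearest gene. Of translation factors 4 of 44 had a member, eef-1A.1, elongation factor 1 alpha, at 232 (105 in replicate 1 and 124 in replicate 2), eef-2, elongation factor 2, at 103 and eif-3.E and eif-3.I, subunits of initiation factor 3, at 87.6 and 83.5. In replicate 1's own list the count was 1. None of 32 aminoacyl-tRNA synthetase genes and none of 33 proteasome genes had one, lists too short for 0 to be told from 2.17%. Replicate 2's own list gave 1 proteasome gene.

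Of heat shock and DnaJ genes 6 of 55 had a member (10.9%), led by dnj-28, by hsp-1, the constitutive Hsp70, at 316 (157.7 in replicate 1 and 161 in replicate 2), and by dnj-13 at 119.3. hsp-90 was at 93.8. F44E5.4 and F44E5.5 are not in that list, whose names begin with hsp or dnj. Replicate 1's own list gave 3 genes of that list and replicate 2's 5, and GC-rich summits met 5 (9.09%). In the respiratory chain 4 of 62 genes had a member, atp-1 at 177 and atp-2 at 113, the main subunits of the ATP synthase catalytic head, cox-5A at 148 and cox-6B at 80.1. Replicate 1's own list gave 2 of them, and GC-rich summits met 6 genes of the list. The 2 genes of 14 for the CCT chaperonin and prefoldin were cct-7 and cct-8, with 0 in replicate 1's own list and 0 by nearest gene. Of ubiquitin and SUMO genes 6 of 69 had one, led by usp-4 at 207, ubc-9, the SUMO-conjugating enzyme, at 143 and ufd-2 at 141, and replicate 2's own list gave 3.

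Of nuclear pore and transport genes 6 of 43 had a member (13.95%). GC-rich summits met 0 of them, against 1.66% of all genes, a share too low for 0 of 43 to show a contrast. npp-6, a nucleoporin, was at 291 (150 in replicate 1 and 139 in replicate 2), npp-8 at 145 and ran-1, the GTPase that drives nuclear transport, at 117. Importins ima-1, imb-3 and imb-1 were at 110, 109 and 98.1. Of chromatin regulators 9 of 97 had one (9.28%), led by swsn-7, a SWI/SNF subunit, at 300.5 (188 in replicate 1 and 118.6 in replicate 2), by pbrm-1, of the same complex family, at 191, and by jmjd-1.2, a histone demethylase, at 166. The pbrm-1 member, on chromosome I at 7500584, was covered by no region of replicate 1's ranked list and had 125.5 in replicate 2, while a GC-rich summit of the gene at 7500792 had 159.6 in replicate 1 and 53.6 in replicate 2. GC-rich summits met 8 of the 97 chromatin regulators (8.25%) and 5 of 151 cell cycle and DNA replication genes (3.31%). Of the latter, 14 had a member (9.27%), led by emb-1 at 368, rpa-2 at 340 and spd-5, a centrosome scaffold protein, at 291. Splicing factors had 7 of 78, prp-19, mog-4 and rsp-6, an SR protein, first, and 3 when only the nearest gene counted. his-67 and his-68 shared a summit at 131.5, and his-37 was at 99.7, for 3 of 72 histone genes, with 1 in replicate 1's own list.

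Of kinase and small GTPase genes 7 of 78 had a member (8.97%). kin-1, the catalytic subunit of protein kinase A, was at 321 (219 in replicate 1 and 106 in replicate 2). Its window was soft-masked by 80.2% and shared sequence with other members. kin-29, a salt-inducible kinase, was at 210 and kin-20, a casein kinase 1, at 166. Of 18 heterochronic genes, which time larval development, 5 had a member (27.8%, the highest share of any list), kin-20, lin-46 at 125, lep-2 at 95.1, lin-28, the RNA-binding regulator of the let-7 microRNA, at 79.8 and lin-66 at 25.2. Each replicate's own list gave 2, and 3 were the nearest gene. The lin-66 member, at 13887891 on chromosome IV, lay beside a GC-rich summit of the gene at 13887687 with a signal of 303.8, and in all 21 genes had both a member and a GC-rich promoter summit. The summit of lep-2, on chromosome IV at 991355, also lay 903 bp upstream of egrh-2, the only EGR gene with a member. Of vesicle traffic genes 7 of 171 had one (4 by nearest gene), led by vps-25 at 245, sec-61.G at 174 and vps-51 at 150, the last at a summit also in the window of lin-35, the worm retinoblastoma homologue. Of body-wall muscle genes 3 of 46 had one, unc-96 at 134, unc-112, a kindlin, at 114.8 and unc-22 at 14.01, and replicate 2's own list held none. Actin and tubulin cytoskeleton genes had 3 of 67, unc-60, a cofilin, at 151, tbb-1 at 107 and act-2 at 105. GC-rich summits met 11 of the 171 vesicle traffic genes and 3 of the 67 cytoskeleton genes.

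Several large families had a share below that of all genes. Chemoreceptor genes had a member in 6 of 1242 cases (0.483%; 2 in replicate 2's own list), srh-246 at 387, srw-82 at 214 and srh-2 at 149 first, and 2 of these genes were in soft-masked windows. F-box, MATH and BTB genes had 1 of 412, neuropeptide and insulin genes 1 of 143, nlp-40 at 83.8, and innate immunity effectors 0 of 356 and detoxification enzymes 0 of 220. Synaptic and pan-neuronal genes had 0 of 51, a list too short for 0 to be told from the 2.17% of all genes. Replicate 1's own list gave 2 genes of each of these last 3 lists, and replicate 2's 0. For the synaptic list those 2 genes were 3.92%, above the 1.72% of all genes in replicate 1's own list. nhr-114, nhr-141 at 299, in a fully soft-masked window, and nhr-40 at 131 led the nuclear hormone receptors. These receptors were near the share of all genes, with 5 of 274 (1.82%). Lipid metabolism genes were near it too, with 3 of 169 (1.77%), cpt-2, a carnitine palmitoyltransferase, at 218, dhs-8 at 126 and lbp-9. Homeobox, bHLH and other developmental factors had 3 of 206, ztf-9 at 157.9, hlh-30, the worm TFEB homologue, at 134 and elt-6 at 100.7. The cuticle list had 3 of 245, dpy-23, dpy-27 and sym-4, at 132, 88.4 and 86.9. dpy-27 is known for dosage compensation and dpy-23 for clathrin-mediated endocytosis rather than as cuticle proteins. Both replicates' own lists covered the dpy-23 member, but when the rule was applied to each replicate's own summits, neither gave a gene of the cuticle list.

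**Figure D5:**
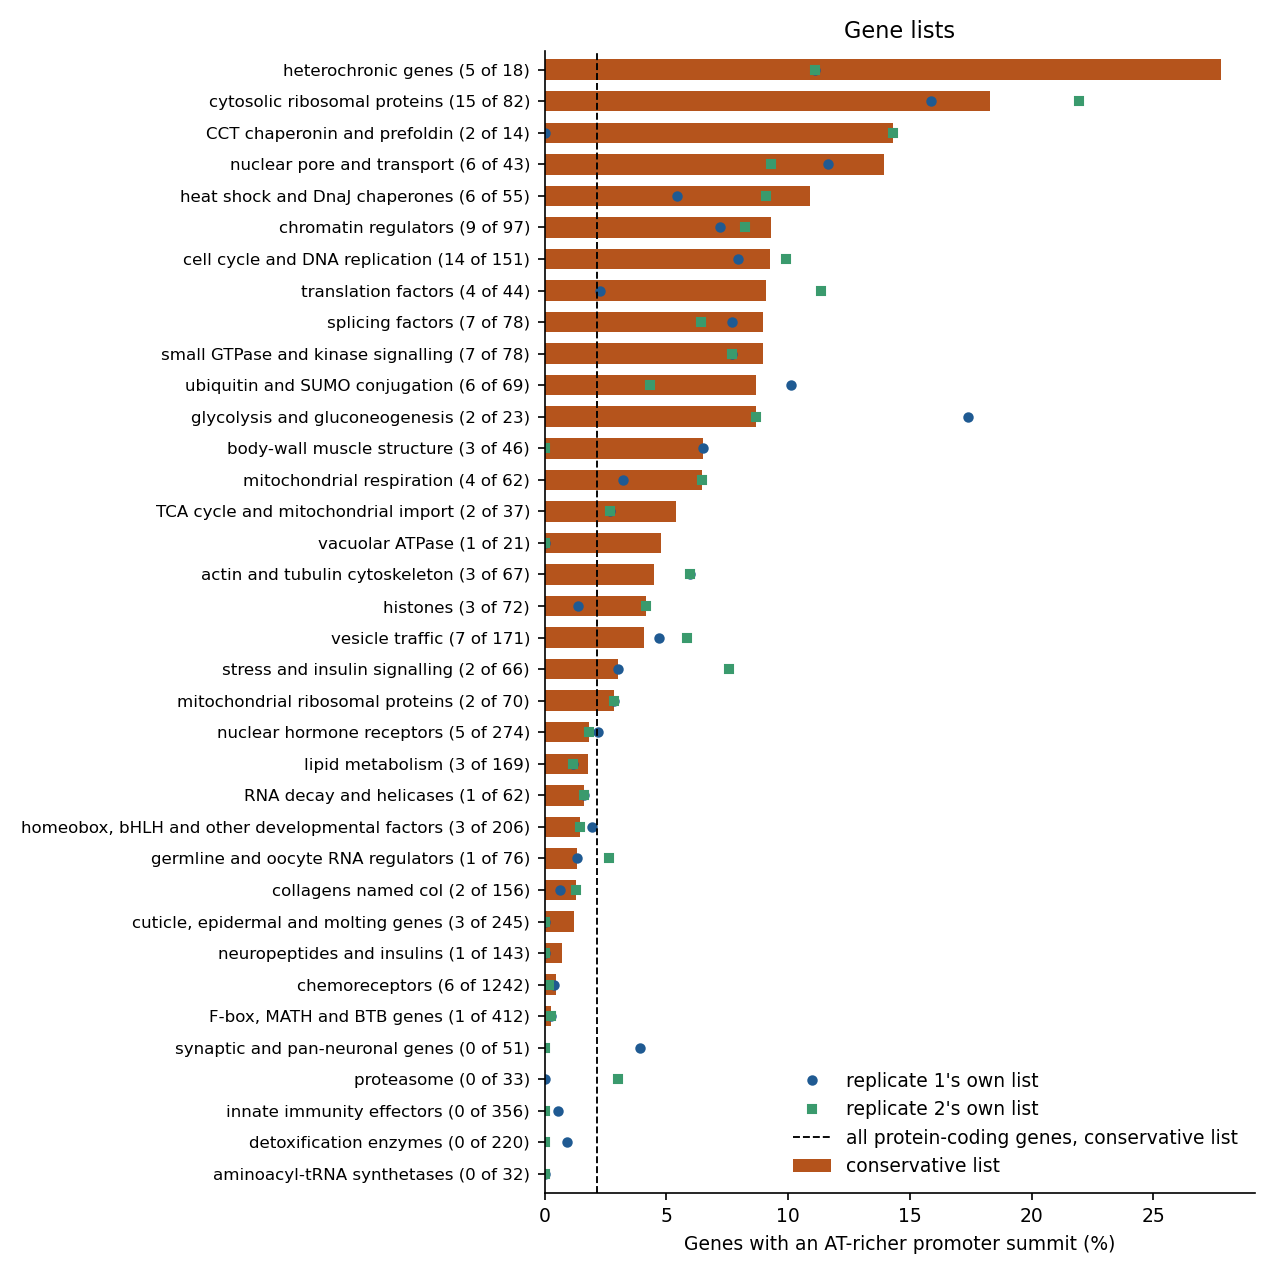
Bars give the percent of genes in each list with an AT-richer promoter summit in the conservative list, with counts beside the names; blue circles and green squares give it in the own lists of replicate 1 and replicate 2, and the dashed line marks 2.17% of all protein-coding genes. Lists of at least 10 genes are drawn; ribosomal proteins, heat shock, chromatin, splicing, nuclear pore and cell cycle lists are among those right of the line in all 3, and the share of all genes is 1.72% in replicate 1's own list and 1.84% in replicate 2's.

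The members were spread over the chromosomes unevenly. Chromosome I held 76 (22.2%, 95% interval 17.9 to 26.9), against 14.2% of AT-richer promoter positions, and chromosome III 67 (19.5%, 15.5 to 24.1), against 12.6%. Chromosome V held 56 (16.3%, 12.6 to 20.7), against 23.7% of positions, and chromosomes II, IV and X 48 each. On X lay 48 of 343 members (13.99%, 10.5 to 18.1) and 64 of 278 GC-rich summits (23.02%, 18.2 to 28.4; odds ratio 0.544, Fisher's exact adjusted p = 0.00808). At an IDR under 0.001 this did not pass (odds ratio 0.480, Fisher's exact adjusted p = 0.0800). X holds 16.0% of AT-richer promoter positions. The larger list held 306 members with the same summit (89.2%) and 262 GC-rich summits (94.2%; odds ratio 0.505, Fisher's exact adjusted p = 0.0384). More than 1 summit in the interval was found for 13 members (3.79%, 2.03 to 6.39) and 12 GC-rich summits (4.32%, 2.25 to 7.42), which did not pass (odds ratio 0.873, Fisher's exact adjusted p = 0.943).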

How the data were processed

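The files were peak lists on ce11, the same assembly as WBcel235, and every peak lay within its chromosome ends. The signal of a peak and the −log10 of its IDR (irreproducible discovery rate) are the authors' values as deposited. Per the file headers, the lists passed an IDR threshold and derive from the replicates' alignments and a control alignment; the conservative list also names 1 further input of unstated role. Which aligner and which peak caller were used is not given in the sources used here. Replicate signals were taken from the strongest region of each replicate's own ranked list that covered the summit, so summits in one region can share a value.

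Genes and 5' ends came from Ensembl release 115 and sequence and soft-masking from RefSeq. Computation used Python 3.11.15, numpy 2.4.6, pandas 2.3.3, scipy 1.17.1 and matplotlib 3.10.9. Members were compared with GC-rich promoter summits by Fisher's exact tests and 6-base words by exact McNemar tests, both with Benjamini-Hochberg adjustment, and the word test was checked on simulated data. Gene lists were defined by name prefixes. Named genes were those of the 20 strongest members, up to 3 strongest of each list with 3 or more, the extremes of GC content and of replicate rank, and members next to the threshold; further genes were named after their values were seen. The members and lists were chosen with earlier results of these data known, and the soft-masking, shared-sequence and tandem heat shock counts were added after seeing the data. Nothing in the labels pairs samples across groups, as there is 1 group. The member of lowest GC content is not reported here by name or sequence.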

Additional observations from a re-analysis of the deposited data

How the results depend on the processing

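No comparison that passed changed direction under an alternative it was recomputed with. A single replicate's own list was run for 4 of the 7 (signal, distance, divergent genes and X), the larger list for all but membership of itself, and the overlap, summit distance and most upstream 5' end settings only for the comparisons they bear on. At an IDR under 0.001, which left 116 members of 272 promoter summits, the odds ratio was 0.202 for replicate 1's list, 1.18 for the share within 300 bp, 1.54 for divergent genes, 0.480 for chromosome X and 0.118 for the larger list, and these 5 no longer passed (Fisher's exact adjusted p from 0.0800 to 0.608); fewer summits entered. The odds ratio for the larger list also failed at a GC limit of 50% (0.577), a promoter of 500 bp upstream (0.570), interval midpoints (0.664) and without soft-masked windows (0.548). With 1 replicate's own list in place of the conservative one, odds ratios ran from 1.08 to 1.77 for the share within 300 bp and from 1.53 to 2.54 for divergent genes, and replicate 2's list gave the values that did not pass. With GC content taken over 100 bp to each side, the odds ratio was 0.0626 for replicate 1's list and 8.38 for a higher rank in replicate 2. A GC limit of 50% left 187 members. With windows of 25 bp to each side 54 words, in place of 161, were more frequent at summits. The other settings stayed on the same side of the threshold or within 1.5 times the count. In the gene lists with 3 or more genes met, 15 of 60 recounts moved by more than 1.5 times. No paired analysis was possible because there is 1 group. Depth is unknown, and without untagged worms background enrichment could not be told from binding at any member.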
